A study of Arabidopsis thaliana with 48 samples.

Results

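A set of 175 of the 32833 Arabidopsis genes in the table was higher in libraries labelled heat stress alone and lower in those labelled high light alone. The members had a mean of at least 50 normalised reads over the 48 libraries, a mean in heat stress (HS) at least 1.5 times that of Control, and a mean in high light (HL) at or below the Control mean divided by 1.5. Of the 19244 genes that reached the minimum mean, 2533 met the heat condition and 2707 met the light condition. The members comprised 174 protein-coding genes and 1 long non-coding RNA, AT5G03615. They were described over the Control and the 15 stress treatments, with 3 libraries each.

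Warmth and shade both make Arabidopsis seedlings elongate. Phytochrome-interacting factors (PIFs), a family of basic helix-loop-helix transcription factors that active phytochrome holds back, switch on auxin synthesis and growth genes. SMALL AUXIN UP RNA (SAUR) genes are among their known targets, and SAUR proteins promote cell expansion by activating proton pumps that acidify the wall, where xyloglucan endotransglucosylase/hydrolases (XTHs) remodel xyloglucan. A separate set of genes, known as dark-inducible or sugar-starvation genes, is induced when carbon runs short and is repressed by light and sugar.

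All libraries came from whole 10-d-old seedlings of wild-type Col-0 grown on agar plates. Salt was 50 mM NaCl and PQ was 0.05 µM paraquat, a herbicide that diverts photosynthetic electrons to oxygen, and each was present in the medium during growth. HL was 700 µmol m-2 s-1 against 50 µmol m-2 s-1 otherwise, and HS was 33 °C against 21 °C otherwise, each applied for 1.5 h. The 15 treatments were the 4 stresses alone and every combination of 2, 3 or 4 of them, each named by its stresses joined with a plus sign, and Control had none. The study's methods call the 3 libraries of a group biological replicates of pooled seedlings. A whole seedling mixes organs, so fewer cells of a type and less RNA per cell cannot be told apart in any value given here.

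Each library had between 67888254 and 87569857 reads on genes. Marker genes did not follow all of the labels, so every group name given here is the label of its libraries and no library was reassigned. HSP101, a heat-induced chaperone, had 17625 to 18178 normalised reads in HS and 67816 to 75515 in HL, against 1055 to 1133 in Control, but it also had 58656 to 63376 in Salt and 151242 to 159545 in PQ. In the libraries labelled PQ+HL+HS it had 1091 to 1172, and in those labelled Salt+PQ+HL+HS it had 1046 to 1227, both within or around the Control range. ELIP1, an early light-induced protein, had 30099 to 32507 in HL and 557 to 700 in HS, against 526 to 586 in Control. Across the combinations ELIP1 had 798 to 840 in Salt+HL against 8861 to 9382 in Salt, 944 to 1018 in PQ+HL against 25653 to 29410 in PQ, and 671 to 723 in Salt+PQ+HL against 6334 to 7022 in Salt+PQ. All 5 genes of a high-light marker list were lower with light added to each of these 3 backgrounds. Of the 3 groups that chose the members, HS carried heat markers without light markers, and Control carried neither. HL carried the light markers and more of the heat markers than HS. The summed heat-shock list had 271851 to 284065 normalised reads in HS, 942612 to 980238 in HL and 7290 to 7943 in Control. Salt had 814517 to 831123 and PQ had 1563106 to 1613314, so HS had the weakest heat-shock signal of the single stresses. All comparisons, HS and HL with Control among them, are therefore between labelled libraries, and the part of the labels in them was not tested.

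The members were chosen by their HS, HL and Control values, which are therefore given as a description with no test. The HS mean was 1.50 to 5.23 times the Control mean, with a median of 1.85. The HL mean was 0.152 to 0.666 times the Control mean, with a median of 0.506. For each of the 175 members the 3 HS libraries lay above and the 3 HL libraries lay below all 3 Control libraries. The rule used these same values, and the share of all genes without overlap was not counted. By limma, which is another measure, 37.2% of all 21536 genes tested were called higher and 34.2% lower in HS. In HL, 38.5% were called higher and 37.5% lower. Just inside the heat condition were AGP17, at 1.50 times Control, and AT2G36410, also at 1.50. Just outside it were LHB1B1, at 1.49, and TRM26, at 1.49. For the light condition, AT1G80440 (0.666) and LNG2 (0.665) lay inside, while AT3G62570 (0.667) and ETFQO (0.673) lay outside. For the minimum mean, CLE2 (50.8) and SAUR26 (50.9) lay inside, while AT1G15840 (45.9) and SLAH1 (45.9) lay outside.

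**Figure D1:**
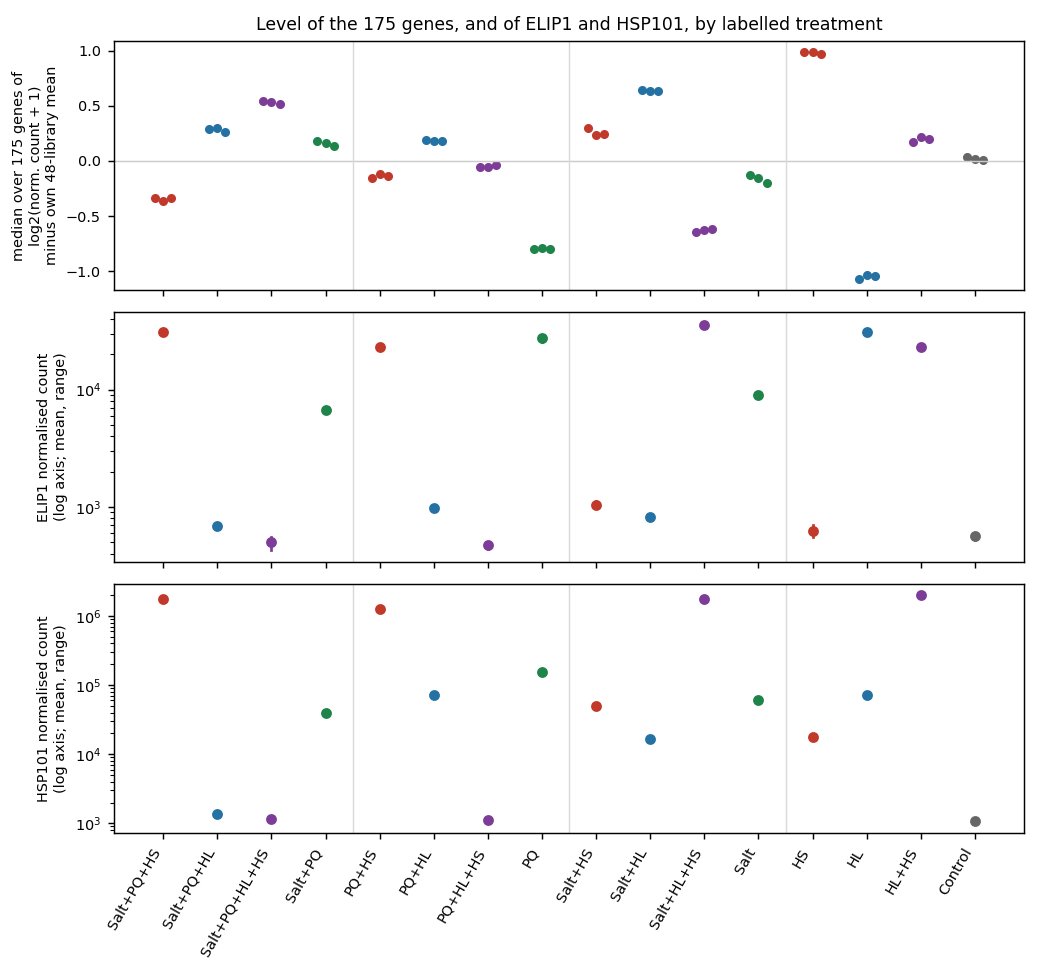
Top, median over the 175 genes of log2 (normalised count + 1) minus each gene's own mean over the 48 libraries, with 1 point per library. Middle and bottom, ELIP1 and HSP101 normalised counts on log axes, with the group mean as a point and the range of the 3 libraries as a line. The labelled groups run along the horizontal axis with Control last, and colours mark HS without HL (red), HL without HS (blue), both (purple), Salt or PQ without either (green) and Control (grey). HS lies above Control and HL below it by the choice of the members, and they have the highest mean (0.98) and the lowest mean (-1.05) of the 16 groups as deposited, while scaling every library to a common total puts Salt+HL+HS lowest.

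The SAUR genes were the largest family among the members, with 12 of the 44 SAUR genes whose mean reached 50 (27.3%), where 0.909% of all genes at that mean were members. On TAIR10, most of the 12 lay in clusters. SAUR19, SAUR20, AT5G18030 (SAUR21) and SAUR22 lay at chr5:5962773-5975087, and SAUR29, SAUR27 and SAUR26 at chr3:976715-983768. SAUR63 and AT1G29460 lay at chr1:10304507-10308246. SAUR19 had 149, 169.6 and 173 normalised reads in the HS libraries and 10.1, 7.65 and 6.85 in the HL libraries, against 43.9, 52.7 and 39.1 in Control. The 3 groups did not overlap, as for every member. Sequence upstream of the transcription start is shown because 9 of the 12 SAUR members, against 7 of the 32 other SAUR genes, held CACATG, the PBE-box that PIFs are known to bind, in the 250 bases before it, read on both strands. The motif was in 17.1% of all members (30 of 175) and in 11.0% of the 19170 genes read. The 9 SAUR members are among those 30 and make up part of the difference. The share of members without the SAUR genes was not counted. Other motifs were read in the same bases. The G-box, CACGTG, was in 7.43% of members and 7.59% of genes, and the heat shock element core in 10.3% and 9.29%. The auxin response element was in 12.6% and 10.6%, and the TATCCA element in 17.1% and 14.2%. In the sequences below, from RefSeq TAIR10.1 and read 5′ to 3′, capitals mark the PBE-box on either strand, and a match is no evidence of binding.
SAUR19 (chr5:5963406-5963655, minus strand): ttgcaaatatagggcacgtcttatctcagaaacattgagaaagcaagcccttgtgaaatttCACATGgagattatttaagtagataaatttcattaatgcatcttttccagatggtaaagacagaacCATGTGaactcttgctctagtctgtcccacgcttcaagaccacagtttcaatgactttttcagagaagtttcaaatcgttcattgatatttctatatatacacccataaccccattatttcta
AT5G18030 (chr5:5968102-5968351, plus strand): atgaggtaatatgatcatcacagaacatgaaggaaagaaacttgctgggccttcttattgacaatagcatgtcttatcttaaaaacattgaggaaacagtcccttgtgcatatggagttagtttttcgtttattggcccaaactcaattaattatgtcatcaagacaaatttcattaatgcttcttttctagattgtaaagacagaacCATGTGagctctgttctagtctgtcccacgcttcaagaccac
SAUR22 (chr5:5975088-5975337, minus strand): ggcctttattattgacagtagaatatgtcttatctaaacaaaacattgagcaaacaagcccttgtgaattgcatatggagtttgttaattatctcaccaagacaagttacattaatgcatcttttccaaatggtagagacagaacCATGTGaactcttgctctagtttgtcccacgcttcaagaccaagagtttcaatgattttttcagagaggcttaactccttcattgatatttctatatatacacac
SAUR26 (chr3:982807-983056, plus strand): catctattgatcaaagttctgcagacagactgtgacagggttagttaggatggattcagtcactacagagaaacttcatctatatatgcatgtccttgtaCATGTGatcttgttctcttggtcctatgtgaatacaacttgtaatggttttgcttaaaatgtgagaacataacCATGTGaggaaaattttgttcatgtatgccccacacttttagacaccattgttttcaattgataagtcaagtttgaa
XTH25 (chr5:23306441-23306690, minus strand): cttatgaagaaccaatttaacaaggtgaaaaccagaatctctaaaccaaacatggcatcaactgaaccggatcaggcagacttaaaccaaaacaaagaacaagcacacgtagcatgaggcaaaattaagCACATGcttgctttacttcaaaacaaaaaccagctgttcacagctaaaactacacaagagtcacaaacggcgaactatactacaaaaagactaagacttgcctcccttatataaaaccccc

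The first 3 of these shared the 16-base run agacagaacCATGTGa around the motif. The motif lay 189 and 123 bases before the start of SAUR19, 42 before that of AT5G18030, 105 before that of SAUR22, 150 and 77 before that of SAUR26 and 121 before that of XTH25. SAUR19 and SAUR63 have 81.5% and 72.9% of their 50-base words unique in the genome, so reads of near-identical copies could be shared and their values are uncertain.

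With light added to PQ, SAUR22 had 43.1, 25.1 and 37.1 in the PQ+HL libraries, against 1.02, 4.07 and 10.8 in the PQ libraries. The groups did not overlap, although the lowest PQ value rested on 1 read. The log2 fold change was 2.84 ± 0.33 (adjusted p = 4.5e-10) by limma with Benjamini-Hochberg adjustment, as for all adjusted p-values here. Here and below, ± is the standard error of the limma fit, whose spread is estimated over all 16 groups. For SAUR22 it does not show the wide spread of the PQ libraries, so its p-value is uncertain. With light added to Salt, SAUR19 had 92.2, 107 and 118 in the Salt+HL libraries, against 51.8, 40.3 and 29.4 in the Salt libraries, a log2 fold change of 1.39 ± 0.29 (adjusted p = 4.6e-05). AT1G29460 had 127, 151 and 121 in the PQ+HL libraries, against 45.7, 31.5 and 43.1 in the PQ libraries, with a log2 fold change of 1.72 ± 0.16 (adjusted p = 5.6e-13). Among the 12 SAUR members, 12 rose with light added to Salt, 11 with light added to PQ and 12 with light added to Salt+PQ, where 32.9%, 30.5% and 38.3% of all genes were called higher. ELIP1 and the high-light list were lower in the libraries with the added HL label, as given above.

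With heat added to Salt+PQ, 12 of the 12 SAUR members fell, with a median log2 fold change of -1.26, where 39.8% of all genes were called lower. SAUR19 had 29.9, 16.6 and 21.8 in the Salt+PQ+HS libraries, against 32.9, 41.8 and 50.8 in the Salt+PQ libraries, a log2 fold change of -0.87 ± 0.29 (adjusted p = 0.0061). The highest Salt+PQ+HS library was below the lowest Salt+PQ library. With heat added to Salt, 3 rose and the other 9 were not called, where 33.4% of all genes were called higher. With heat added to PQ, 6 rose and 1, AT1G29500, fell, against 38.0% and 37.2% of all genes. Both counts of rises are of 12 genes and lay near those shares. They moved with the scaling. When every library was scaled to a common total (the same total hereafter), 8 were higher in Salt (43.0% of all genes). In PQ, 5 were then higher (17.0%) and 2 lower (65.0%). Quantile normalisation gave 7 higher in Salt, and 9 higher and 1 lower in PQ. The share of all genes under quantile normalisation is not given. The 9 heat-shock list genes all rose with heat added to PQ and to Salt+PQ, whereas with heat added to Salt 1 rose and 6 fell.

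XTH25, an XTH of the elongating wall, had 216, 232 and 187 in the PQ+HS libraries, against 78.3, 59.0 and 74.3 in the PQ libraries, a log2 fold change of 1.58 ± 0.13 (adjusted p = 3.9e-14). All 5 members named XTH (XTH4, XTH6, XTH9, XTH25 and XTH33) rose with heat added to Salt and with light added to Salt and to PQ. Of all genes, 33.4%, 32.9% and 30.5% were called higher there. In Salt+PQ none of the 5 was called higher with heat added and 4 fell, with a median log2 fold change of -0.59 (1 higher and 3 lower under quantile normalisation), against 39.9% and 39.8% of all genes. With light added to Salt+PQ 2 rose and 3 fell, with a median of -0.46, against 38.3% and 39.6% of all genes. With heat added to PQ, 3 rose (2 under the same total) and XTH6 and XTH33 fell, XTH6 by 0.92 on the log2 scale, against 38.0% and 37.2% of all genes. XTH33 had 254, 253 and 223 in the Salt+HL libraries, against 67.0, 79.6 and 80.9 in the Salt libraries, a log2 fold change of 1.67 ± 0.21 (adjusted p = 4.9e-09). AGP17, a cell wall arabinogalactan protein, had 3708, 3429.7 and 3801 in the Salt+HS libraries, against 1549, 1349 and 1311 in the Salt libraries, a log2 fold change of 1.38 ± 0.06 (adjusted p = 7.8e-23), but fell with heat added to PQ (log2 fold change -0.46 ± 0.06, adjusted p = 1.7e-08). LNG2, which promotes polar cell elongation, rose with heat added to Salt (log2 fold change 0.46 ± 0.04, adjusted p = 1.1e-13) and fell with heat added to Salt+PQ (log2 fold change -0.95 ± 0.04, adjusted p = 4.0e-25). MIOX2, which feeds wall sugar synthesis by oxidising myo-inositol, had 10459.8, 10035 and 9940.5 in the PQ+HS libraries, against 2121, 2700.5 and 2167 in the PQ libraries, a log2 fold change of 2.13 ± 0.06 (adjusted p = 1.6e-31).

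The sugar-starvation list contributed 5 members of its 17 genes tested: ASN1 (asparagine synthetase), SEN1 (a senescence marker), DIN10 (raffinose synthase family), DYL1 (a dormancy-associated protein) and MCCA (leucine breakdown). ASN1 had 81052, 83494 and 77421 normalised reads in the HS libraries and 20921, 23727 and 18248 in the HL libraries, against 29813, 34687 and 30648 in Control, without overlap, as for every member. With light added to Salt+PQ, ASN1 had 10984, 11922 and 10896 in the Salt+PQ+HL libraries, against 62471, 64732 and 64678 in the Salt+PQ libraries, a log2 fold change of -2.51 ± 0.07 (adjusted p = 2.7e-31). All 5 fell there, where 39.6% of all genes were called lower. All 5 rose with light added to Salt and to PQ, where 32.9% and 30.5% of all genes were called higher. DYL1 was the exception in direction, since it was 0.08 higher on the log2 scale with light added to Salt+PQ once each library was scaled to the same total. With heat added, 4 rose in Salt and 5 in PQ, against 33.4% and 38.0% of all genes. In Salt+PQ 3 fell and DYL1 rose with heat added, against 39.8% lower and 39.9% higher of all genes. Under the same total DYL1 was at -0.13 there and all 5 were called lower, against 74.2% of all genes. AT2G33830 (DRM2), related to DYL1, had 35939, 35488 and 36116 in the PQ+HS libraries, against 3792, 3282 and 3577 in the PQ libraries, a log2 fold change of 3.34 ± 0.04 (adjusted p = 1.6e-44). SEN1 had 13636, 14021 and 13032 in the Salt+PQ+HL libraries, against 32122, 32424 and 31608 in the Salt+PQ libraries (log2 fold change -1.24 ± 0.07, adjusted p = 1.7e-19). DIN10 had 78819.8, 79200.5 and 78563 in the PQ+HL libraries, against 26987, 30601 and 29844 in the PQ libraries (log2 fold change 1.44 ± 0.04, adjusted p = 7.5e-30).

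**Figure D2:**
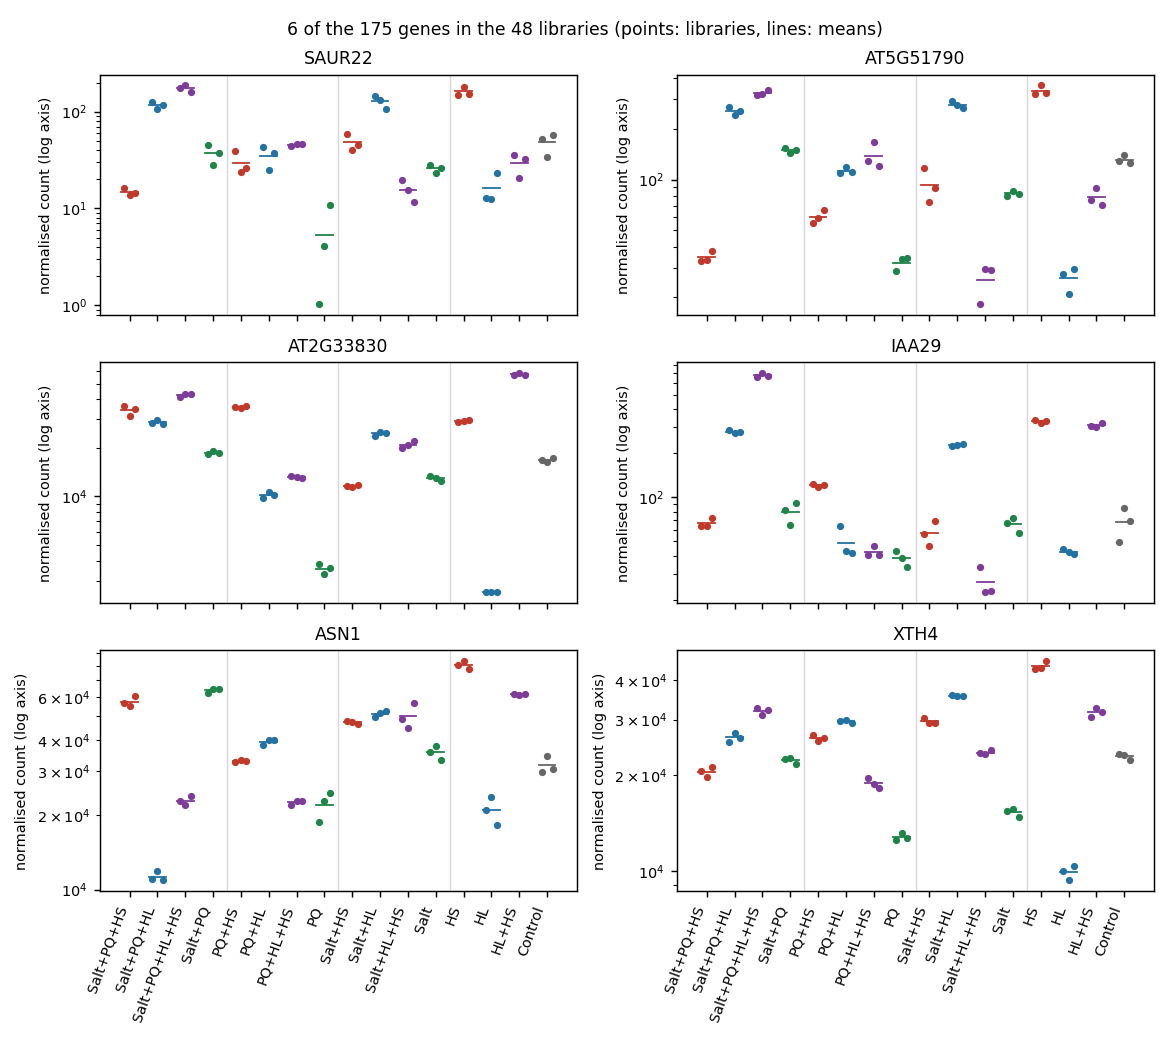
Normalised counts of SAUR22, AT5G51790, AT2G33830, IAA29, ASN1 and XTH4, 6 of the 175 members, on log axes, against the labelled groups, with a point per library, a line at the group mean and the colours of the plot of group levels. Each gene is higher in HS and lower in HL than in Control by its choice, while in the combinations ASN1 is lowest in Salt+PQ+HL and IAA29 highest in Salt+PQ+HL+HS.

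Regulators among the named members included PAR1, IAA29 and BBX17. PAR1, an atypical bHLH protein that limits shade responses, had 61.2, 59.0 and 58.0 in the Salt+PQ+HS libraries, against 158, 153 and 138 in the Salt+PQ libraries, a log2 fold change of -1.32 ± 0.16 (adjusted p = 3.9e-10), and it rose with light added to all 3 backgrounds. IAA29, an auxin repressor induced by PIFs, had 659, 701 and 677 in the Salt+PQ+HL+HS libraries, against 82.1, 65.2 and 91.3 in the Salt+PQ libraries, a log2 fold change of 3.09 ± 0.16 (adjusted p = 1.4e-21) with both stresses added. Its HS-to-Control ratio of 4.87 was among the highest of the members. BBX17, a B-box protein, had 1716, 1686 and 1625 in the Salt+HS libraries, against 389.8, 349 and 366 in the Salt libraries, a log2 fold change of 2.18 ± 0.09 (adjusted p = 2.3e-25), the largest rise of a member with heat added to Salt, followed by AT1G15010 (log2 fold change 1.84 ± 0.13, adjusted p = 4.4e-16) and XTH33 (log2 fold change 1.55 ± 0.21, adjusted p = 3.1e-08). The largest fall was that of AT3G11370, with 45.9, 41.9 and 35.9 in the Salt+HS libraries, against 212, 162 and 163 in the Salt libraries and a log2 fold change of -2.09 ± 0.21 (adjusted p = 7.6e-12). RHS17, a root hair-specific gene, fell by 1.55 and AT1G52270 by 1.07 on the log2 scale. AT1G80440, a kelch F-box gene at the edge of the light condition, was raised with heat added to PQ (log2 fold change 0.87 ± 0.06, adjusted p = 5.2e-18). CLE2, a signalling peptide gene, had 10.9, 21.2 and 13.1 in the Salt+PQ+HS libraries, against 101, 78.8 and 72.5 in the Salt+PQ libraries with heat added to Salt+PQ (log2 fold change -2.45 ± 0.22, adjusted p = 1.6e-13).

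The most abundant members included PATL1, a membrane trafficking protein, AT3G15450, an aluminium-induced protein, and AT5G44020, a HAD-family acid phosphatase. PATL1 rose with heat added to PQ (log2 fold change 1.05 ± 0.03, adjusted p = 1.3e-32) and with light added to PQ (log2 fold change 1.11 ± 0.03, adjusted p = 3.1e-33). AT5G44020 rose with heat added to Salt (log2 fold change 0.96 ± 0.03, adjusted p = 1.6e-31). AT5G44260, a tandem zinc finger gene, rose with light added to Salt and to PQ and fell with light added to Salt+PQ (log2 fold change -0.88 ± 0.07, adjusted p = 7.3e-15). AT3G15450 fell with light added to Salt+PQ (log2 fold change -1.04 ± 0.05, adjusted p = 8.4e-22). PIP1;5, a plasma membrane aquaporin, rose with heat added in all 3 backgrounds, by 0.25 ± 0.03 in Salt, 0.93 ± 0.03 in PQ and 0.43 ± 0.03 in Salt+PQ on the log2 scale, although the last was -0.16 once each library was scaled to the same total. AT3G42800 had 38.1, 33.3 and 36.3 in the Salt+PQ+HS libraries, against 152, 164 and 159 in the Salt+PQ libraries with heat added to Salt+PQ (log2 fold change -2.12 ± 0.23, adjusted p = 3.5e-11). GDPD2, a phosphodiesterase, had 746, 735 and 713 in the Salt+PQ+HS libraries, against 6739.9, 6970.1 and 6526 in the Salt+PQ libraries there (log2 fold change -3.20 ± 0.07, adjusted p = 1.7e-34), and it was named after its values were seen. The evening element, AAATATCT on either strand, known from clock-controlled genes, was in 10.3% of members and in 4.97% of genes, and 2 of its carriers are shown, with the element in capitals.
AT3G15450 (chr3:5212734-5212983, plus strand): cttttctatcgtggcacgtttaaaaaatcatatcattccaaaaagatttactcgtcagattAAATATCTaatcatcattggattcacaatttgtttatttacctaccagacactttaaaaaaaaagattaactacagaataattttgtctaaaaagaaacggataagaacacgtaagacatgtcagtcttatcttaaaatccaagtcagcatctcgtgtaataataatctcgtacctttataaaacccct
AT3G42800 (chr3:14904980-14905229, plus strand): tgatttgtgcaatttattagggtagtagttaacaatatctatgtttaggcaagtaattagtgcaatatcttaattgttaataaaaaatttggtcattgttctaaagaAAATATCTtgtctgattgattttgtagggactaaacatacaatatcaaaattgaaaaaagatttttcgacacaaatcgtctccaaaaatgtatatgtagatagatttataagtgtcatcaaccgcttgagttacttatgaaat

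Further members were named for their large HS-to-HL difference or their place in the contrasts. AT5G51790, a bHLH transcription factor gene, had 321, 361 and 324 normalised reads in HS and 27.6, 21.0 and 29.3 in HL, against 129, 139 and 126 in Control. With heat added to Salt+PQ it had 32.6, 33.3 and 37.7 in the Salt+PQ+HS libraries, against 153, 143 and 151 in the Salt+PQ libraries (log2 fold change -2.08 ± 0.15, adjusted p = 1.4e-16), and the groups were far apart. AT3G62950, a glutaredoxin-type thioredoxin superfamily gene, rose with heat added to PQ (log2 fold change 1.15 ± 0.13, adjusted p = 7.8e-11) and was not called with heat added to Salt. AT1G15125, a methyltransferase gene, had 1124, 1066 and 1008 in the PQ+HS libraries, against 77.3, 104 and 145 in the PQ libraries (log2 fold change 3.33 ± 0.11, adjusted p = 4.8e-28). The non-coding AT5G03615 rose with light added to Salt (log2 fold change 1.05 ± 0.12, adjusted p = 1.6e-10) and fell with light added to Salt+PQ (log2 fold change -1.23 ± 0.12, adjusted p = 1.0e-12). AT2G45180, a lipid-transfer protein family gene, rose with light added to all 3 backgrounds, least in Salt+PQ (log2 fold change 0.34 ± 0.04, adjusted p = 3.5e-09). AT1G19530 went the other way from most members with light added to Salt (log2 fold change -0.50 ± 0.07, adjusted p = 3.2e-08). No member kept the direction of both single stresses in all 6 contrasts of heat and light added to Salt, PQ and Salt+PQ. The nearest was AT1G54740, whose least favourable contrast was light added to PQ (log2 fold change 0.31 ± 0.04, adjusted p = 7.9e-09), followed by CYP78A7, AT4G33980, AT5G44260, PIP1;5, AT2G01300 and AT3G62550.

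When heat was added to Salt, 102 of the 175 members were called higher and 30 lower, with 43 not called and a median log2 fold change of 0.43, against 33.4% and 32.2% of all 21536 genes. When it was added to PQ, 133 of the 175 members were called higher and 21 lower, with 21 not called and a median log2 fold change of 0.69, against 38.0% and 37.2% of all 21536 genes. Scaling each library to the same total gave 102 higher (17.0% of all genes) and 44 lower (65.0%) there. When it was added to Salt+PQ, 26 of the 175 members were called higher and 118 lower, with 31 not called and a median log2 fold change of -0.56, against 39.9% and 39.8% of all 21536 genes, and 8 higher (13.2% of all genes) and 160 lower (74.2%) under the same total. The members called higher were 58.3% in Salt and 76.0% in PQ, above the share of all genes, and 14.9% in Salt+PQ, below it. Called higher in all 3 backgrounds were 16 members, among them XT1, UGE1, LRX3, TCP11 and RABG3B, which were chosen after their values were seen. Neither the share of all genes called higher in all 3 nor that called lower was counted. Under the same total 4 members were called higher in all 3, of which AT1G10020 and TCP11 were among the 16, and 10 of the 16 were below 0 with heat added to Salt+PQ. The summed heat-shock list had 653349.7 to 677254 normalised reads in Salt+HS, against 814517 to 831123 in Salt, 6571237 to 6612122 normalised reads in PQ+HS, against 1563106 to 1613314 in PQ, and 8445689 to 8810525 normalised reads in Salt+PQ+HS, against 601214 to 623866 in Salt+PQ, and its part was not tested. The median log2 fold change of all genes lay between -0.02 and 0.01 over the 12 comparisons within the Salt, PQ and Salt+PQ backgrounds. Called lower in all 3 were GAT1_2.1, GDPD2, RLP19 and scpl2 (all but GDPD2 also under the same total), whose reads may be shared with near-identical copies in the case of scpl2 (83.0% of 50-base words unique).

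With light added to Salt, 152 of the 175 members were called higher and 4 lower, with 19 not called and a median log2 fold change of 0.79, against 32.9% and 32.6% of all 21536 genes. With light added to PQ, 162 of the 175 members were called higher and 0 lower, with 13 not called and a median log2 fold change of 0.96, against 30.5% and 31.0% of all 21536 genes. The count of 0 was also 0 by limma at an unadjusted p under 0.05, by edgeR and by DESeq2. With light added to Salt+PQ, 81 of the 175 members were called higher and 57 lower, with 37 not called and a median log2 fold change of 0.12, against 38.3% and 39.6% of all 21536 genes, and 112 higher (53.3% of all genes) and 40 lower (27.5%) under the same total. In total 147 members rose with light added to both Salt and PQ and 71 in all 3 backgrounds (107 under the same total). The share of all genes called in several backgrounds at once was not counted, so nothing stands beside these joint counts or the next one. No member was called lower in all 3, and the count was again 0 at an unadjusted p under 0.05 by limma, edgeR and DESeq2. The summed high-light list moved down with the added label, with 11007 to 12309.6 normalised reads in Salt+HL, against 50171 to 52376 in Salt, 11333 to 11949.7 normalised reads in PQ+HL, against 93518 to 105719 in PQ, and 15786 to 17274 normalised reads in Salt+PQ+HL, against 36455 to 40463 in Salt+PQ. Its part in the members' change was not tested.

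**Figure D3:**
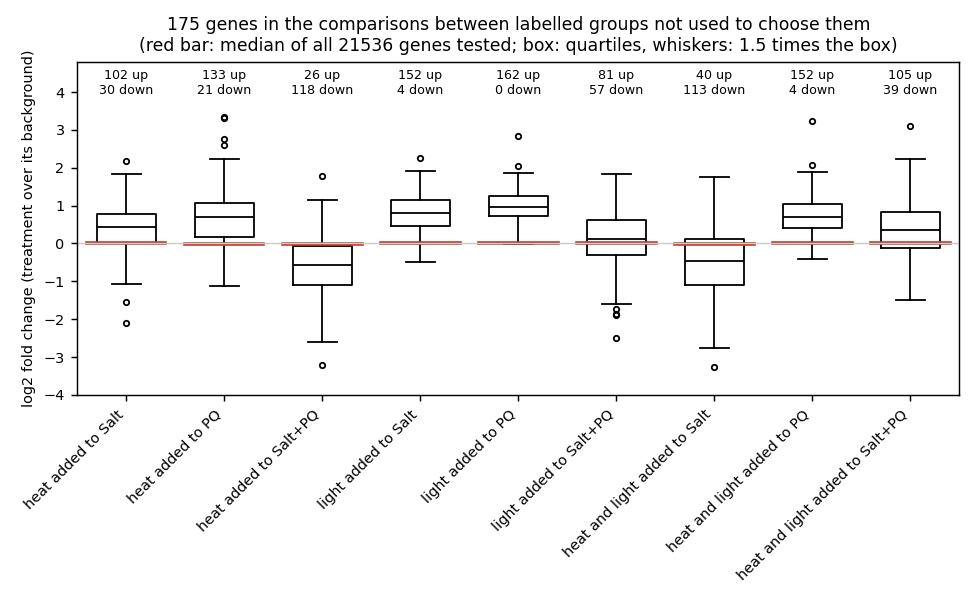
Box plots of the log2 fold change of the 175 members for heat, light or both added to the libraries labelled Salt, PQ and Salt+PQ, with the median and quartiles as boxes, the median of all 21536 genes tested as red bars, and the counts called higher (up) and lower (down) by limma above each box. Light added to PQ has 162 members higher, and heat added to Salt+PQ has 118 lower.

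With heat and light both added to Salt, 40 of the 175 members were called higher and 113 lower, with 22 not called and a median log2 fold change of -0.47, against 39.9% and 41.1% of all 21536 genes, and 12 higher (11.2% of all genes) and 152 lower (77.5%) under the same total. With both added to PQ, 152 of the 175 members were called higher and 4 lower, with 19 not called and a median log2 fold change of 0.69, against 38.2% and 39.4% of all 21536 genes. With both added to Salt+PQ, 105 of the 175 members were called higher and 39 lower, with 31 not called and a median log2 fold change of 0.36, against 37.8% and 38.8% of all 21536 genes. The 12 SAUR members all fell in Salt and all rose in PQ, with a median of 1.44, and in Salt+PQ. The heat-shock list, of 9 genes, was higher for all 9 in Salt, and lower for all 9 in PQ and in Salt+PQ.

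Whether the response to heat differed with light was tested as the log2 effect of heat with light minus that without light. In Salt, 6 members were called higher and 160 lower, with a median of -1.60, against 39.9% and 40.2% of all genes. In PQ, the counts were 11 and 139, with a median of -0.90, against 36.8% and 38.3%, and 33 higher (63.3% of all genes) and 103 lower (19.3%) under the same total. In Salt+PQ, they were 138 and 18, with a median of 0.93, against 35.8% and 37.0%, and 162 higher (66.7% of all genes) and 2 lower (13.9%) under the same total. All 12 SAUR members were lower in Salt and higher in Salt+PQ, with a median of 1.45 in Salt+PQ. In PQ 1 of them was higher and 6 lower, with a median of -0.48, and 2 were higher and 2 lower under the same total, with a median of 0.0026. In Salt, PAR1 had an effect of -3.76 ± 0.22 (adjusted p = 1.3e-19) and AT3G42800 of -3.45 ± 0.32 (adjusted p = 6.0e-13).

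Other comparisons with Control share its libraries with the rule, so their values are given as a description and support nothing. In HL+HS, 89 members were higher and 65 lower than in Control, with a median log2 fold change of 0.19, against 42.7% and 43.2% of all genes. Scaled to the same total, the counts were 23 higher (14.4% of all genes) and 133 lower (78.7%) and the median -0.67, as all genes moved by -0.87. IAA29 had 307, 302 and 321 in the HL+HS libraries, against 49.5, 85.1 and 69.4 in the Control libraries, and DYL1 had 27611, 28448 and 28029.6 in the HL+HS libraries, against 9853, 9294 and 9969 in the Control libraries, each without overlap. AT1G29500, a SAUR gene, had 77.5, 73.0 and 77.9 in the HL+HS libraries, against 340.4, 304 and 309 in the Control libraries, a log2 fold change of -2.04. In Salt+HL, 156 members were higher and 0 lower, against 35.8% and 33.5% of all genes, and the count of lower ones was also 0 at an unadjusted p under 0.05 by limma, edgeR and DESeq2. In PQ, 159 members were lower, against 39.0% of all genes, with 5 higher, against 40.2%, a count of 3 without Control replicate 1 or PQ replicate 2. Salt+PQ+HL had 99 members higher and 29 lower, against 19.6% and 20.9%. In PQ+HL+HS, 8 were higher and 57 lower, against 9.65% and 10.1%. In Salt+PQ+HL+HS, 127 were higher and 14 lower, against 23.3% and 23.6%.

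The split of the remaining comparisons with Control moved when libraries were scaled to the same total. In Salt, 45 were higher and 89 lower, against 40.5% and 39.1% of all genes, and 27 higher (30.2% of all genes) and 114 lower (51.2%) under the same total. In Salt+HS, 92 were higher and 20 lower, against 35.6% and 33.9% of all genes, and 76 higher (27.6% of all genes) and 32 lower (44.6%) under the same total. In PQ+HL, 82 were higher and 31 lower, against 35.9% and 34.4% of all genes, and 62 higher (27.5% of all genes) and 48 lower (45.3%) under the same total. In PQ+HS, 53 were higher and 83 lower, against 42.1% and 42.1% of all genes, and 16 higher (18.8% of all genes) and 146 lower (71.8%) under the same total. In Salt+PQ, 79 were higher and 31 lower, against 40.2% and 38.5% of all genes, and 55 higher (29.2% of all genes) and 69 lower (51.3%) under the same total. In Salt+PQ+HS, 52 were higher and 102 lower, against 42.2% and 42.4% of all genes, and 9 higher (15.7% of all genes) and 152 lower (76.1%) under the same total. In Salt+HL+HS, 36 were higher and 124 lower, against 42.9% and 43.0% of all genes, and 3 higher (14.7% of all genes) and 166 lower (78.0%) under the same total.

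Ordered by the median over members of each library's log2 level relative to the gene mean, the groups ran upwards from HL (-1.05), PQ (-0.79), Salt+HL+HS (-0.63) and Salt+PQ+HS (-0.34) to Salt (-0.16) and PQ+HS (-0.14). PQ+HL+HS (-0.05), Control (0.02), Salt+PQ (0.16), PQ+HL (0.19) and HL+HS (0.20) came next. Salt+HS (0.26), Salt+PQ+HL (0.29), Salt+PQ+HL+HS (0.53), Salt+HL (0.64) and HS (0.98) were highest. Salt and PQ+HS overlapped, HL+HS overlapped with PQ+HL and with Salt+PQ, and Salt+HS with Salt+PQ+HL. Under the same total, Salt+HL+HS (-1.18) lay below HL (-0.99), HL+HS lay at -0.39, below Salt (-0.08), and HS was again highest (1.16), against 0.29 in Control. HS held the highest mean of 112 members and HL+HS of 21, and HL held the lowest mean of 101. Over the 13 groups the rule did not use, the level ran against log2 ELIP1 with r of -0.75 and rho of -0.73, and against log2 HSP101 with r of -0.55 and rho of -0.55, as a description of libraries normalised together. These values are for the deposited scaling and were not computed under the same total, which moved the group levels.

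**Figure D4:**
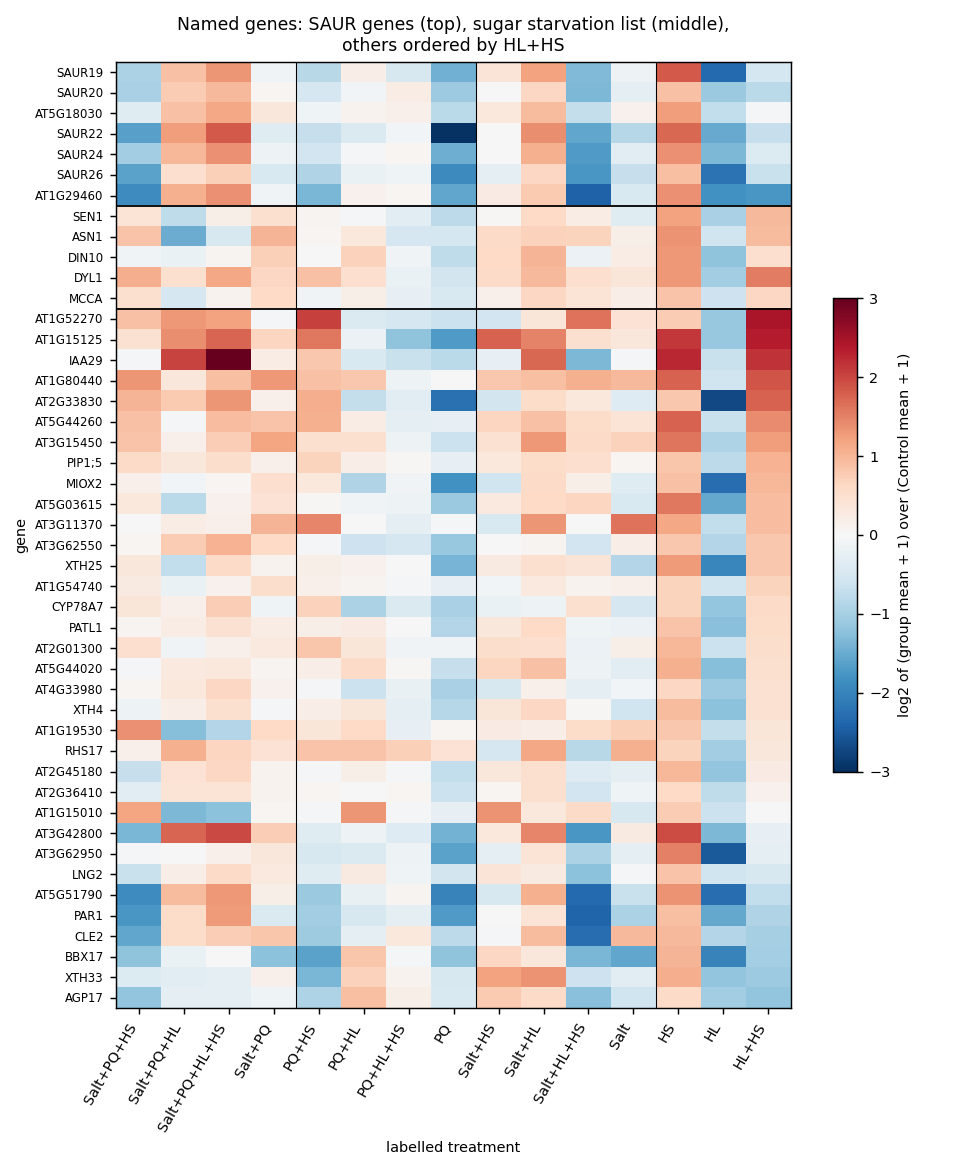
Log2 of (group mean + 1) over (Control mean + 1) for the named members, in rows, and the 15 labelled treatments, in columns, with red above Control and blue below it. SAUR genes stand at the top, sugar-starvation genes in the middle and the others below, ordered by HL+HS. The SAUR genes are blue in PQ and in Salt+HL+HS, and the sugar-starvation genes are red in HL+HS, where under the same total 1 of the 5 was called higher and 2 lower.

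Among the members, 7 of the 25 genes tested on a list of shade and warmth growth genes were included, and 5 of the 17 on the sugar-starvation list, while 1 of 9 wall genes, XTH4, and 1 auxin gene, IAA29, were on theirs and 11 further lists held none. Of the 25 shade and warmth genes, heat added raised 9 and lowered 6 in Salt (33.4% and 32.2% of all genes), raised 15 and lowered 5 in PQ (38.0% and 37.2%), and raised 5 and lowered 16 in Salt+PQ (39.9% and 39.8%). Light added raised 20 and lowered 3 of them in Salt (32.9% and 32.6% of all genes), raised 17 and lowered 4 in PQ (30.5% and 31.0%), and raised 13 and lowered 9 in Salt+PQ (38.3% and 39.6%). Under the same total, heat added to PQ raised 8 and lowered 9 of them. Of the 17 sugar-starvation genes, heat added raised 8 and lowered 6 in Salt (33.4% and 32.2% of all genes), raised 12 and lowered 4 in PQ (38.0% and 37.2%), and raised 4 and lowered 10 in Salt+PQ (39.9% and 39.8%). Light added raised 10 and lowered 5 of them in Salt (32.9% and 32.6% of all genes), raised 16 in PQ (30.5%) and lowered 17 in Salt+PQ (39.6%). Under the same total, 16 were lower and 1 higher with light added to Salt+PQ. The members were shorter than all genes with a mean of at least 50, with a median length of 1828 against 2427 bases, and had a median GC content of 38.2% against 38.8%. The median coefficient of variation of a member within a group was 4.70% and the highest 94.4%. Both genes annotated as phy rapidly regulated, PAR1 and PAR2, were members.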

How the data were processed

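RNA-seq of 48 libraries was deposited as 1 value per gene and library. Per the labels and the methods, the authors aligned reads to TAIR10 with STAR 2.4.0.1, checked them with FastQC 0.11.7 and normalised counts with DESeq2 1.20.0, so the deposited signal is counts divided by size factors. Whole reads could be recovered (100% of values whole within 0.001 reads). From the values, log2 (value + 1) was fitted with limma 3.58.1 (R 4.3.3) over all 16 groups, on 21536 genes whose mean reached 10, with Benjamini-Hochberg adjustment over all of them. Alternatives used edgeR 4.0.16 and DESeq2 1.42.0 on the recovered reads, pseudocounts of 0.1 and 10, each replicate left out in turn, other scalings and the replicate number as a block. Over the comparisons, edgeR on the recovered reads called 4712 to 18492 genes, against 4244 to 18507 by limma. The tests were tried on simulated data with known changes. Tables were made with Python 3.11.15, numpy 2.4.6, pandas 2.3.3 and scipy 1.17.1, and figures with matplotlib 3.10.9. The members and lists were chosen with earlier results of these data known. Named were the 12 members with the largest difference between the HS and HL log2 ratios, the 8 with the highest mean, those on the lists, the 8 with the largest minimum over the 6 contrasts of heat and light added (light with its sign turned), the 3 largest falls and 3 largest rises with heat added to Salt, and the 2 nearest each threshold. Upstream sequence was the 250 bases before each start, from RefSeq TAIR10.1, matched by locus for 32548 of 32833 genes and all 175 members.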

Additional observations from a re-analysis of the deposited data

Results flagged for a closer look

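The heat effect on the members differed with the light label in each of the 3 backgrounds by the interaction test of limma (adjusted p under 0.05), with 6 members higher and 160 lower in Salt, 11 higher and 139 lower in PQ, and 138 higher and 18 lower in Salt+PQ. Over all genes tested, 39.9% were higher and 40.2% lower in Salt, 36.8% and 38.3% in PQ, and 35.8% and 37.0% in Salt+PQ. All 12 SAUR members were lower in Salt and higher in Salt+PQ, while in PQ 1 was higher and 6 lower, and 2 were higher and 2 lower after scaling libraries to a common total. The marker genes of heat and high light did not follow the labels in these combinations, and their part in the differences was not tested.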

How the results depend on the processing

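Every library had at least 67888254 reads on genes, so depth limits only members with few reads, such as SAUR22 in PQ. The label doubt given above holds for every comparison. Scaling each library to the same total moved the median of all genes by -0.889 to 0.542 on the log2 scale, by over 0.1 in 21 of 27 comparisons. The members' median moved by at most 0.00534 relative to all genes. That follows from the scaling, which shifts all genes of a library alike apart from the added count of 1, and is no check of the results. Under it, members called lower were 44 with heat added to PQ (65.0% of all genes) and 2 with light added to Salt (21.9%). They were 0 with both added to PQ (23.9%) and 2 for the interaction in Salt+PQ (13.9%). Members called higher were 8 with heat added to Salt+PQ (13.2% of all genes) and 12 with both added to Salt (11.2%). For the interaction they were 1 in Salt (14.0%) and 33 in PQ (63.3%). Against Control, members called higher were 27 in Salt, 2 in PQ, 16 in PQ+HS, 23 in HL+HS, 9 for Salt+PQ+HS and 3 for Salt+HL+HS. Members called lower were 69 in Salt+PQ, 133 in HL+HS, 146 when PQ+HS was compared, 48 in PQ+HL and 32 in Salt+HS. In these comparisons the same scaling called 14.4% to 30.2% of all genes higher and 44.6% to 78.7% lower. The median turned to -0.12 in Salt+PQ and -0.67 in HL+HS. Quantile normalisation gave 2 lower with both added to PQ, 52 lower in Salt+PQ, 34 higher for Salt+PQ+HS and 22 higher for Salt+HL+HS. The share of all genes under quantile normalisation is not given beside these counts, so they are a description only.

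In the comparisons within the Salt, PQ and Salt+PQ backgrounds, named genes that turned under the same total were LNG2 (-0.16), with heat added to PQ, DYL1 (-0.13) and PIP1;5 (-0.16), with heat added to Salt+PQ, DYL1 (0.083) and LNG2 (0.13), with light added to Salt+PQ, AT1G80440 (0.15), with both added to PQ, and, with both added to Salt, ASN1 (-0.15), AT5G44020 (-0.47), DYL1 (-0.48), MCCA (-0.43) and PIP1;5 (-0.19). Quantile normalisation turned DYL1 (0.15) with light added to Salt+PQ, and AT5G44020 (-0.24), DYL1 (-0.18) and MCCA (-0.12) with both added to Salt. In those comparisons, of the settings tried for named genes, 102 gained a call, 134 lost one and 15 turned. Turned here means of the other sign with a call in both fits, as for the genes listed above. The remaining 5959 had none of these changes, although values called in neither fit, and those that lost or gained a call, could differ in sign. Against Control, in the 13 comparisons the rule did not use, called values of the 46 named genes turned 57 times under the same total and 45 times under quantile normalisation, among them DIN10 and MCCA in HL+HS under the same total. There a turn needed a call under the deposited scaling only, so these counts and the 15 above are unlike.

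Leaving out 1 library kept the counts within 1.5 times except for the members higher in PQ than in Control, which were 3 to 4 in place of 5. The rule gave 33 members at a fold of 2 and 492 at a lower fold, leaving out 1 library gave 168 to 178, of which 163 to 172 were among the 175, and the same total gave 197, of which 140 were. With the replicate number as a block, 102 members were higher with heat added to Salt, as without it, and no count of members moved by over 1.5 times. The numbers did not pair the libraries, as the residuals correlated at -0.000294 on average within a number and at 0.000153 between numbers.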
